A study of Mus musculus with 24 samples.

Results

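Liver RNA that had broken down inside stored tissue was set against liver RNA that had been cut by RNase in a tube, on 6 of the 24 microRNA (miRNA) microarrays of a mouse study. The livers of 3 male mice, numbered 7, 9 and 10 in the labels, were each divided, and every mouse gave 1 array to each of 8 groups. For the stored tissue, a piece of liver was left at room temperature for 96 h, and total RNA with its small RNAs was isolated with the miRNeasy kit and DNase (3 arrays). For the RNase-digested RNA, RNA depleted of small RNAs was isolated from unstored liver with the RNeasy kit and DNase, incubated with 0.67 U RNase and isolated again with the miRNeasy kit (3 arrays). Each degraded state had an intact counterpart of 3 arrays. Fresh tissue was total RNA with small RNAs from liver at 0 h, prepared with DNase, and the 0 U control was depleted RNA taken through the same incubation with 0 U RNase. Strain and age of these mice were not given in the sources used here. Members were found from the group in the labels and, for the RNase arrays, from the description and the RNA integrity number (RIN), a score of ribosomal RNA integrity that falls as RNA breaks down. RIN was 2.3, 2.4 and 2.3 in stored tissue of mice 7, 9 and 10 and 2.9, 2.4 and 2.6 with RNase, so both states were degraded to a similar score. RIN was 9, 8.9 and 8.9 in fresh tissue and 9, 9.2 and 9.1 at 0 U.

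A miRNA is a short single-stranded RNA. Drosha in the nucleus and Dicer in the cytoplasm usually cut it from either arm of a hairpin precursor, so that each hairpin can give a 5p and a 3p miRNA, and an Argonaute protein then carries it to messenger RNAs that pair with its seed, bases 2 to 8. Ribosomal and messenger RNAs far outweigh miRNAs in a cell. When a tissue dies, its own RNases cut these long RNAs, whereas RNase added to purified RNA acts on molecules stripped of protein. The array labels the 3′ ends of all RNAs in a sample and reads them on short probes, so a signal on a miRNA probe is hybridization to that probe, from the miRNA or from another RNA that pairs with it. Liver is known for a very high level of miR-122 in its hepatocytes.

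The comparison between the states joins several differences that cannot be told apart here: storage against added RNase, RNA with small RNAs against RNA depleted of them, and a single isolation against a repeated one. The depletion was not complete, and miRNAs were still detected in depleted RNA. For mouse 9 the labels of the RNase arrays contradict each other. The title, source name and dose characteristic of the array used here name 0.026 U, and its description and protocol name 0.67 U. That array had a RIN of 2.4, 349 detected miRNAs and a total signal of 70313 intensity units. The other array of mouse 9, described as 0.026 U, had a RIN of 6.0, 408 detected miRNAs and a total of 177642. Both 0.026 U arrays of mice 7 and 10 detected fewer, 255 and 274. Grouping mouse 9 by its titles left 160 of the 163 and 168 of the 181 rank calls described later. The stored array of mouse 10 stood apart from the other stored arrays. The Spearman correlation of its signals with theirs over the 806 miRNAs compared was as low as 0.791, whereas that between the other stored arrays was 0.957 and those between RNase arrays lay between 0.965 and 0.977. Each mouse had its own slide, read in its own scan, and these cannot be told apart from the animal. The spike-in signal on the 6 arrays lay between 2755 and 3275 units.

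The mature sequences of the miRNAs on which the results turn are given here 5′ to 3′, from RefSeq with the names of its mouse build GRCm38.p6, with the seed in capitals. The first set holds members of the let-7 family, which share 1 seed and ranked higher with RNase in every case. The second holds miRNAs detected in stored tissue and not with RNase. The third holds miRNAs that led the signal in either state, with miR-21a-5p added as a liver miRNA whose signal parted, and the fourth holds both arms of hairpins whose arms parted.
let-7a-5p: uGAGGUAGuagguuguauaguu
let-7b-5p: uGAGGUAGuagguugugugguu
let-7d-5p: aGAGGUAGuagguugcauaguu
let-7e-5p: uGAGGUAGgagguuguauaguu
miR-8093: uUGGGGAGcagagcaugagug
miR-7015-5p: uCUGUGCAguaggcuguggguuc
miR-351-3p: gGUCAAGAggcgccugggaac
miR-3473f: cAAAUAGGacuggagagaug
miR-101a-3p: uACAGUACugugauaacugaa
miR-494-3p: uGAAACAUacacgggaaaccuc
miR-3963: uGUAUCCCacuucugacac
miR-8110: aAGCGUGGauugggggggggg
miR-5126: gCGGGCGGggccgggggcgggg
miR-1224-5p: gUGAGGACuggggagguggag
miR-6366: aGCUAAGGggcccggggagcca
miR-21a-5p: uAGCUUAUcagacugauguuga
miR-99b-5p: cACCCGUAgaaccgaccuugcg
miR-99b-3p: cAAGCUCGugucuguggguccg
miR-125a-5p: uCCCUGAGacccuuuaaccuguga
miR-125a-3p: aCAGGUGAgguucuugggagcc
miR-877-5p: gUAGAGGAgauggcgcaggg
miR-877-3p: uGUCCUCUucucccuccuccca
All let-7 members share their seed. Of the bright miRNAs, miR-5126 holds 17 G among 22 bases, miR-8110 14 among 21 and miR-1224-5p 13 among 21, whereas miR-494-3p holds 4 among 22.

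Stored tissue gave signal on more miRNA probes than RNase-digested RNA did. Of the 1881 miRNAs on the array, 639, 707 and 582 were detected in stored tissue of mice 7, 9 and 10, against 317, 349 and 403 with RNase. The groups did not overlap, and stored tissue had the higher count in each mouse. The means were 642.7 ± 62.6 and 356.3 ± 43.5 (SD, n = 3), and they differed by 286.3 (two-sided exact permutation test, p = 0.1, the smallest that 3 arrays against 3 can give). Fresh tissue detected 285, 308 and 303 miRNAs and the 0 U control 204, 203 and 238, so both degraded states lay above their intact counterparts in every mouse.

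Nearly all miRNAs seen with RNase were also seen in stored tissue. On at least 1 array, 754 miRNAs were detected in stored tissue, 410 with RNase and 397 in both, which was 52.7% of the stored list and 96.8% of the RNase list. On every array of a state, stored tissue had 521 and RNase 315, and 290 miRNAs were detected on all 6. Of these 290, 184 were also detected on every fresh array and 69 on no fresh and no 0 U array. A further 158 miRNAs were detected on every stored array and no RNase array, a set of 302 with mouse 10 left out. Among the 158, 12 were on every fresh array, and 140 were on no fresh and no 0 U array. These counts were 272 and 1530 of all 1881 miRNAs, and 210 and 256 of the 521 on every stored array. The median signal of the 158 in stored tissue was 17.2 units.

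The reverse pattern, detection on every RNase array and no stored array, was found for 4 miRNAs. They were miR-1949, miR-3069-3p, miR-99b-5p and miR-6911-5p. With RNase in mice 7, 9 and 10, miR-3069-3p had 4.45, 5.22 and 7.25 units and miR-1949 had 3.22, 3.60 and 4.18. Both were also detected on every fresh and every 0 U array. miR-6911-5p, with 4.25, 2.93 and 8.55 units with RNase, was detected on no fresh and no 0 U array. All these signals were low, and the count changed to between 7 and 9 under other detection settings or without 1 replicate.

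**Figure D1:**
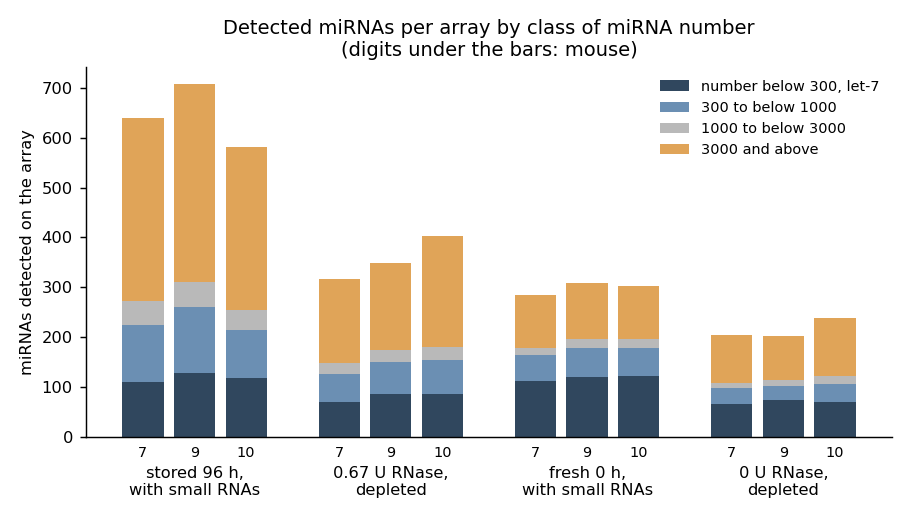
Number of detected miRNAs on each of the 12 arrays of stored tissue, RNase-digested RNA and their intact counterparts, stacked by the number in the miRNA name. The 3 stored arrays reach 582 to 707 and the 3 RNase arrays 317 to 403.

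The signal with RNase was held by a single probe set, and that in stored tissue was spread. The brightest miRNA of all RNase arrays was miR-494-3p, from a large miRNA cluster of an imprinted locus. It had 52249, 42227 and 102286 units with RNase, 62.6%, 60.1% and 60.7% of the detected signal, and 9695, 10776 and 4728 units in stored tissue. The RNase arrays were all above the stored arrays, by 7.70 times in the mean over mice of the ratio. Fresh tissue had 314, 321 and 639 units and the 0 U control 287, 241 and 628, so that the signal with RNase was 182, 175 and 163 times that at 0 U. In stored tissue the brightest was miR-3963 in mice 7 and 9 and miR-8110 in mouse 10, with 11.6%, 24.6% and 12.6% of the signal. Stored minus RNase, the share of the brightest miRNA differed by -44.9 percentage points and that of the 10 brightest by -29.9, each lower in 3 of 3 mice (exact permutation p = 0.1, the smallest possible). The total detected signal was 245927, 362324 and 199478 units in stored tissue and 83451, 70313 and 168514 with RNase.

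The states shared a part of their brightest miRNAs. By mean rank, 6 of the 10 brightest, 29 of the 50 brightest and 63 of the 100 brightest were common to both. Stored and fresh tissue shared 27 of the 100 brightest, and RNase-digested RNA and its 0 U control shared 64. miR-5126, among the leaders in stored tissue, had 22725, 19748 and 14869 units there, 918, 755 and 2433 with RNase, and between 68 and 129 on the fresh and 0 U arrays. It was higher in both degraded states than in intact RNA. miR-1224-5p had 12746, 25600 and 8862 units in stored tissue and 5199, 4436 and 11344 with RNase, and the states overlapped. On the fresh and 0 U arrays it lay between 160 and 401 units.

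A different kind of leader was bright in total RNA before storage. miR-6366 had 23166, 37532 and 41140 units in fresh tissue, 10939, 9274 and 14538 in stored tissue, 521, 391 and 1388 with RNase and 108, 102 and 136 at 0 U. miR-3963 had 9627, 19129 and 26046 units in fresh tissue and 28429, 89031 and 5923 in stored tissue, and it lay between 1581 and 2690 with RNase. It was higher after storage in mice 7 and 9 and lower in mouse 10. miR-5100, picked after its values were seen, went from 5172, 14678 and 1855 units in stored tissue to 7.33, 4.29 and 7.65 with RNase, a ratio of 837. Fresh tissue had 1486, 3083 and 4263 units of it and the 0 U control under 8, so the intact RNAs of both kinds already parted there.

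**Figure D2:**
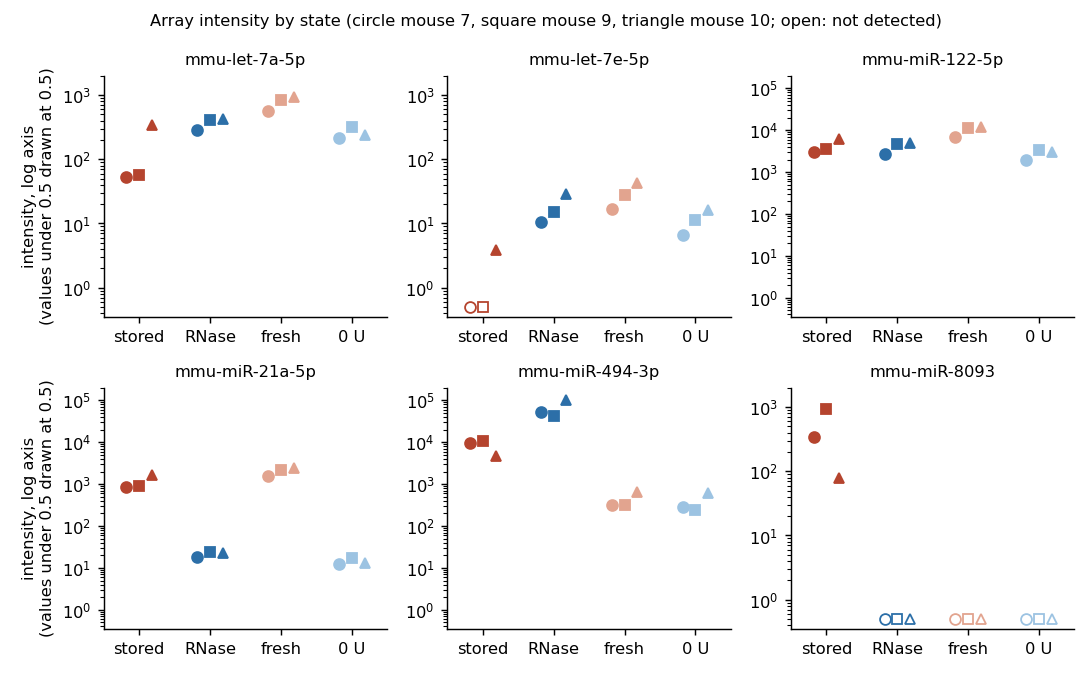
Signal of 6 miRNAs on each array of the 4 states, in intensity units on a log10 axis, with a point per mouse; open points were not detected, and values under 0.5 units are drawn at 0.5. miR-494-3p is highest with RNase, miR-8093 is detected only in stored tissue, and let-7e-5p is lowest in stored tissue.

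Since total signal differed so much between the states, miRNAs were compared by their rank within an array. The rank is a percentile from 0 for the dimmest to 100 for the brightest of the 631 kept miRNAs, those with detection on 5 or more of the 24 arrays. Probes differ in how strongly they respond, so a rank is not an order of amounts, and an undetected miRNA was ranked by its measured signal. A difference was called at an adjusted p under 0.05 and at least 10 percentile points in limma. Of the 631, 163 miRNAs (25.8%) ranked higher in stored tissue and 181 (28.7%) ranked higher with RNase. All 3 mice gave the same sign for 153 and 172 of them. Without mouse 10, 174 and 190 were called, 153 and 165 of them in common with the full set, and without mouse 9, 140 and 156 were called, 134 and 149 in common. The calls share their arrays with the changes against intact RNA, so the following counts are a description. Of the 163, 147 had risen with storage against fresh tissue, as had 381 of all 631, and 104 were detected on no RNase array, as were 227 of the 631. Of the 181, 79 had fallen with storage and 33 had risen, against 136 and 381 of all. Of the same 181, 40 had risen with RNase against 0 U and 22 were detected on no stored array, against 283 and 36 of all. Stored arrays alone, prepared with or without DNase, can pass the filter of 5 arrays, as can RNase arrays of both doses. Calls of miRNAs undetected in the other state are therefore not independent of the filter.

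By signal instead of rank, after variance stabilization to a log2-like scale called glog2, 261 miRNAs (41.4%) were higher in stored tissue and 77 (12.2%) higher with RNase, at an adjusted p under 0.05 and a difference of 1. Of the 163 miRNAs that ranked higher in stored tissue, 159 also passed by signal, and of the 181 that ranked higher with RNase, 72 did. This count depends on the scaling between arrays. The median difference of all 631 was 0.94 after variance stabilization, 0.10 after quantile normalization, 2.49 after scaling to spike-ins and 2.61 without scaling, so ranks lead the account that follows.

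The profiles of the states were only partly alike. Over 806 miRNAs, the Spearman correlation between a stored and an RNase array lay between 0.562 and 0.754, with 0.618, 0.562 and 0.754 within mice 7, 9 and 10. Stored arrays correlated with fresh arrays at 0.203 to 0.479, and RNase arrays with 0 U arrays at 0.634 to 0.839. Within the RNase group the values began at 0.965. These correlations run across miRNAs that share arrays and probe chemistry and are given as a description.

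**Figure D3:**
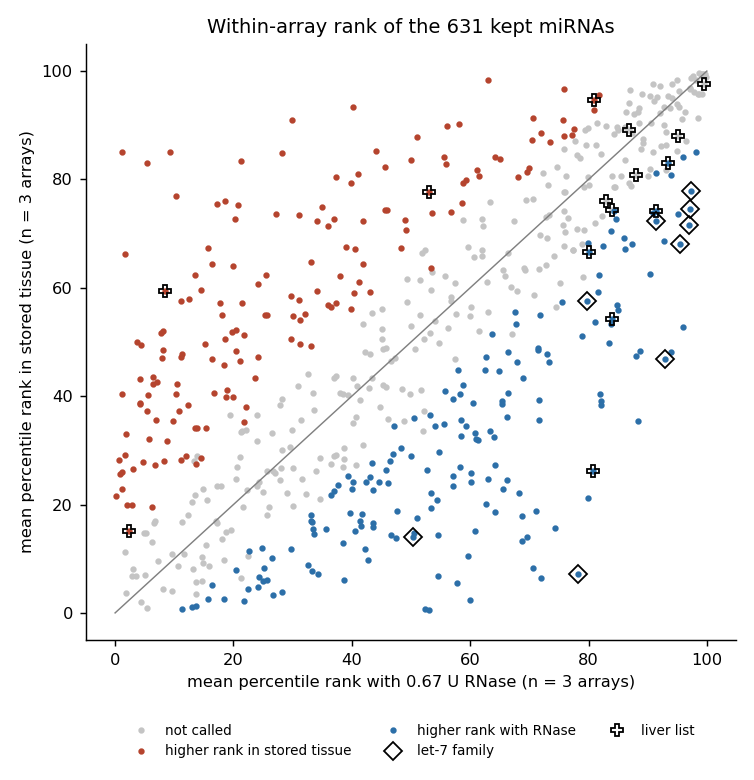
Mean percentile rank of each of the 631 miRNAs in stored tissue (vertical axis, n = 3) against that with RNase (horizontal axis, n = 3); red and blue points were called higher in stored tissue (163) and with RNase (181), and the line marks equal rank. All 9 let-7 family members, drawn as diamonds, lie below the line.

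The let-7 family, conserved miRNAs that restrain growth genes such as Ras and are abundant in adult tissues, ranked lower in stored tissue as a whole. All 9 kept members were called higher with RNase, and none higher in stored tissue. The members are close in sequence, so their probes may share targets and the 9 calls may not be separate readings. Rank differences of the 9 members, stored minus RNase, ran from -71.1 to -19.0 points with a median of -25.5, against a median of -0.69 over all 631. let-7a-5p had 53.3, 57.4 and 346 units in stored tissue and 283, 411 and 425 with RNase. Mouse 10 was the exception among the stored livers, with a value near those of the RNase arrays. Among all 1881 miRNAs let-7a-5p stood at rank 233, 240 and 68 in stored tissue and at 20, 17 and 21 with RNase, where 1 is the brightest. Its percentile was 25.5 points lower in stored tissue (SE 3.98, limma adjusted p = 1.08e-05). Each of the 9 members was also called with any 1 mouse left out, but with ranks taken among all miRNAs on the array let-7a, b, c, f, g and i fell under 10 points and were no longer called.

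The same miRNA was plentiful in fresh tissue. let-7a-5p had 569, 850 and 941 units in fresh tissue, 10.7, 14.8 and 2.72 times those in stored tissue of the same mouse. The 0 U control held 212, 320 and 243 units, so fresh tissue was only 2.68, 2.66 and 3.87 times above RNA that had been depleted of small RNAs, and RNase left 1.33, 1.28 and 1.75 times the 0 U signal. By signal, all 9 members fell with storage and none was called to change with RNase. let-7b-5p had 98.6, 113 and 307 units in stored tissue and 284, 441 and 494 with RNase, a rank difference of -19.3 points. Its fresh signal was 1.31, 1.34 and 1.39 times that at 0 U.

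let-7e-5p gave the widest gap of the family. In stored tissue it was detected in mouse 10 only, at 3.8 units, whereas with RNase it had 10.5, 15.4 and 28.7 units. Fresh tissue had 16.6, 27.3 and 42.9 units and the 0 U control 6.64, 11.2 and 16. The rank difference was -71.1 points (SE 4.29, limma adjusted p = 7.42e-12). let-7d-5p followed at -46.1 points and miR-98-5p at -36.4. The summed signal of the 9 members was 386, 404 and 1582 units in stored tissue and 1121, 1677 and 1754 with RNase, so the RNA depleted of small RNAs gave the higher let-7 sum in every mouse. By signal 8 of the 9 were called higher with RNase after variance stabilization, 9 after quantile normalization and 5 after scaling to spike-ins or without scaling, and none was called higher in stored tissue. With spike-in scaling or none, the sign of let-7g-5p and let-7i-5p turned toward stored tissue.

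The genes of let-7e, miR-99b and miR-125a lie next to each other on chromosome 17, with 0 other genes between the first and the last in RefSeq. The cluster was picked after its values were seen. All 3 of its 5p miRNAs ranked higher with RNase. miR-125a-5p, the mammalian relative of the worm lin-4, had 1.55, 2.34 and 17.5 units in stored tissue, detected in mouse 10 only, and 11.6, 14.2 and 38.6 with RNase. The difference was -58.7 points (SE 8.05, limma adjusted p = 1.98e-06). miR-99b-5p was not detected in stored tissue and had 2.33, 4.77 and 6.50 units with RNase, a difference of -47.6 points. The related miR-125b-5p, miR-100-5p and miR-99a-5p, from other chromosomes, differed by -45.8, -33.5 and -30.0 points. In mouse 10 alone miR-99a-5p did not differ, at 0.158 points. Over mice, the mean unscaled ratio of stored tissue to RNase was 0.253 for miR-125b-5p, 1.47 for miR-100-5p and 1.73 for miR-99a-5p.

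The 3p arms of this cluster did not follow. miR-99b-3p had 75.2, 82.4 and 38.7 units in stored tissue and was detected on no RNase or fresh array, and it ranked 26.7 points higher in stored tissue (SE 4.84, limma adjusted p = 6.01e-05). miR-125a-3p had 608, 785 and 1557 units in stored tissue, 52.3, 77.4 and 147 with RNase and 3.81, 3.12 and 2.58 in fresh tissue. Its rank difference was 0.69 points (limma adjusted p = 0.902). On each stored array the 3p arm was among the 53 brightest miRNAs, whereas its 5p partner was detected in mouse 10 only.

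Arms were compared over all hairpins for which both arms were among the 631. Of 87 such hairpins, 22 had both arms called, and in 13 of these the arms were called in opposite directions. Of all kept miRNAs 25.8% were called higher in stored tissue and 28.7% higher with RNase, so unrelated arms would also give opposite calls. Whether the 13 exceed that was not tested, and the count is not read as a feature of hairpins. The 5p arm was the one higher in stored tissue in 9 of the 13 and the 3p arm in 4, miR-99b and miR-193a among them. For miR-6980 the 5p arm had a rank difference of 52.3 points and the 3p arm of -26.3. miR-30e, also among them, had 18.6 points for the 5p and -23.5 for the 3p arm. In the other 9 both arms moved together, 4 higher in stored tissue and 5 higher with RNase. A further 46 hairpins had 1 arm called and 19 none.

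**Figure D4:**
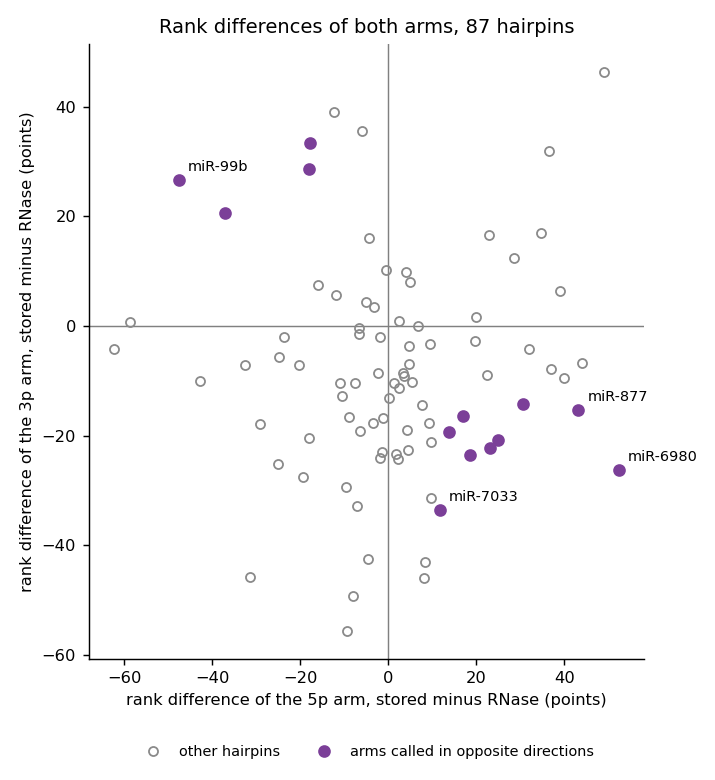
Difference in percentile rank, stored minus RNase, of the 5p arm (horizontal axis) and the 3p arm (vertical axis) of 87 hairpins with both arms kept. Filled points are the 13 hairpins whose arms were called in opposite directions, 9 of them at the lower right.

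Among miRNAs called in stored tissue by rank and signal alike, the leading 8 were miR-8093, miR-7015-5p, miR-351-3p, miR-212-3p, miR-3474, miR-6349, miR-3473f and miR-7677-5p. None of the 8 was detected on any RNase array, so their RNase ranks lie among values not above background. All but miR-212-3p were also detected on no fresh and no 0 U array. Among the states compared here, only stored tissue thus counted toward their passing the filter on detection. They entered in part through the state in which they are high, so their place among the leaders is not independent of the filter. Since the 8 were undetected with RNase, the size of each rank difference also depends on how undetected miRNAs are ranked. With undetected miRNAs tied, the differences of the 8 ran from 44.2 points for miR-3474 to 69.0 points for miR-3473f. Untied, these were 64.4 and 61.1 points. miR-8093 had 347, 922 and 79.8 units in stored tissue and was detected on no fresh, RNase or 0 U array. Its rank was 83.8 points higher in stored tissue, or 63.0 points with undetected miRNAs tied, since its RNase rank lies among values not above background. It was kept through arrays of stored tissue alone, prepared with or without DNase. After variance stabilization its signal was at least 50.01-fold higher, counted against the lowest detected signal of the RNase arrays. miR-7015-5p had 287, 388 and 122 units, at least 40.5-fold higher, and miR-3473f had 730, 914 and 277 units, at least 81.6-fold higher. For each of these 3 the stored array of mouse 10 was the lowest of the stored arrays.

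miR-212-3p, made with miR-132 from a locus that responds to CREB, differed from the others in its fresh signal. It had 215, 295 and 45.0 units in stored tissue and 21.9, 54.2 and 56.7 in fresh tissue. Stored tissue was 9.79 and 5.46 times fresh in mice 7 and 9 and 0.793 times fresh in mouse 10, so the mice disagreed. Against RNase it was at least 24.2-fold higher.

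On the RNase side the leading 8 were let-7e-5p, miR-295-5p, miR-139-5p, miR-696, miR-125a-5p, miR-3069-3p, miR-331-3p and miR-652-3p. Their rank differences lay between -71.1 and -55.6 points. miR-139-5p had 6.86, 10.8 and 11.4 units with RNase and 3.02, 2.46 and 2.12 in stored tissue, and the groups did not overlap. miR-295-5p, of a cluster expressed in embryonic stem cells, had 6.82, 8.82 and 19.5 units with RNase and was detected on no fresh or 0 U array. It was detected in 1 of 3 stored arrays. miR-295-5p and miR-696 rose with RNase against 0 U, whereas let-7e-5p, miR-139-5p, miR-125a-5p, miR-3069-3p, miR-331-3p and miR-652-3p were not called to change with RNase and fell with storage against fresh tissue.

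Of the 15 abundant liver miRNAs, 13 were detected on every stored array and 12 on every RNase array, while miR-101a-3p and miR-101b-3p were detected on no RNase array. miR-122-5p, the hepatocyte miRNA, had 3030, 3677 and 6117 units in stored tissue and 2719, 4599 and 5083 with RNase. The groups overlapped, and the mean ratio over mice was 1.02. It stood at rank 18, 20 and 7 of all miRNAs in stored tissue and at 4, 2 and 4 with RNase. Fresh tissue had 6767, 11368 and 12125 units, 3.41, 3.29 and 3.89 times the 0 U signal, so the depleted RNA kept a part of it. Its percentile differed by -1.85 points (limma adjusted p = 0.0118), under the 10 points asked for. By signal after variance stabilization it differed by -1.69 (limma adjusted p = 0.00577), by -0.11 with spike-in scaling and by 0.03 without scaling, so the size rests on the scaling.

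miR-21a-5p, raised in liver injury and regeneration, parted clearly. It had 876, 898 and 1673 units in stored tissue and 17.8, 24.6 and 22.8 with RNase, 50.9 times less in the mean over mice. Fresh tissue had 1542, 2221 and 2452 units and the 0 U control 12.5, 17.1 and 12.8, a ratio of 123, 130 and 192, so intact RNA of both kinds already differed. Its rank was 13.7 points higher in stored tissue (SE 2.50, limma adjusted p = 6.81e-05), and 9.43 points without mouse 10. miR-192-5p, like miR-122 enriched in liver, had 430, 420 and 449 units in stored tissue and 35.5, 42.4 and 35.5 with RNase. Its rank differed by 2.17 points (limma adjusted p = 0.389), and its fresh signal was 23.3, 30.4 and 42.9 times that at 0 U.

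Of these 15, 4 ranked higher in stored tissue, 5 higher with RNase, and 6 were not called, with a median difference of -7.08 points. Of all kept miRNAs 25.8% and 28.7% were called, so these counts lie near the background. Higher in stored tissue were miR-21a-5p, miR-148a-3p, miR-101a-3p and miR-101b-3p. miR-148a-3p, abundant in hepatocytes, had 86.6, 109 and 355 units in stored tissue and 3.26, 4.64 and 3.12 with RNase, a difference of 24.7 points. Fresh tissue had 175, 267 and 402 units of it and the 0 U control 2.47, 1.68 and 2.29. miR-101a-3p had 34.3, 40.7 and 50.5 units and was not detected with RNase. It was at least 7.20-fold higher by signal and 51.0 points higher by rank, or 37.4 points with undetected miRNAs tied. In fresh tissue it had 42, 57 and 77 units, and it was not detected at 0 U. For both miRNAs the intact RNAs thus already differed. miR-101b-3p, at 12.8 points, changed sign where undetected miRNAs were tied. Higher in rank with RNase were miR-29a-3p, miR-30c-5p, miR-26a-5p, miR-103-3p and miR-107-3p. After variance stabilization only miR-103-3p and miR-107-3p of these were also called by signal. Unscaled signal of miR-29a-3p, miR-30c-5p, miR-26a-5p and miR-107-3p was higher in stored tissue, by 2.71, 3.08, 1.76 and 1.21 times in the mean over mice.

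miR-103-3p and miR-107-3p, which share a seed, act on insulin sensitivity. miR-103-3p had 3.97, 3.18 and 23.4 units in stored tissue and 16.6, 22.1 and 24.1 with RNase, and mouse 10 reached the RNase range. Its difference was -54.5 points (SE 7.85, limma adjusted p = 3.79e-06), and that of miR-107-3p was -29.7. By signal, the liver list had 5 members higher in stored tissue and 3 higher with RNase after variance stabilization, 3 and 9 after quantile normalization, and 11 and 1 without scaling. The summed liver signal was 5414, 6455 and 11022 units in stored tissue and 3158, 5136 and 5695 with RNase. Against fresh tissue, 14 of the 15 fell with storage, and none was called to change between 0 U and 0.67 U. Over all 631 miRNAs 136 fell with storage, and 283 rose and 3 fell with RNase.

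Markers of the other cells of the liver mostly ranked higher with RNase or were not called. Of the 7 kept endothelial and stromal miRNAs, 5 ranked higher with RNase and 0 higher in stored tissue, with a median of -19.1 points. miR-126a-3p, which marks endothelium, had 51.7, 50.8 and 122 units in stored tissue, 26.9, 37.8 and 37.5 with RNase and 273, 439 and 471 in fresh tissue. Its rank difference, stored minus RNase, was -19.1 points (SE 3.27, limma adjusted p = 3.26e-05) although its unscaled signal was higher in stored tissue, and in mouse 10 it was -3.17 points. Of the 5 kept immune miRNAs, miR-223-3p, of granulocytes, and miR-146a-5p, an inhibitor of NF-kappaB signalling, ranked higher with RNase. Their differences were -21.7 and -14.0 points, although their unscaled signal was higher in stored tissue in each mouse. miR-223-3p had 13.2, 10.4 and 21.3 units there and 4.88, 4.45 and 7.67 with RNase. For miR-146a-5p these were 5.05, 8.02 and 8.41 units and 1.36, 2.09 and 2.41. It was detected on 1 of 3 RNase arrays. With undetected miRNAs tied it differed by -7.16 points, under the 10 points asked for. miR-155-5p, of activated immune cells, had 51.8, 66.0 and 26.7 units in stored tissue and 2.80, 1.91 and 5.91 with RNase. Its rank difference of 12.4 points did not pass (limma adjusted p = 0.129), whereas its signal after variance stabilization was called higher in stored tissue, by 1.81 (limma adjusted p = 0.00316). Of the 3 kept red cell miRNAs, miR-451a, which Argonaute rather than Dicer matures, ranked 12.4 points higher in stored tissue, with 150, 190 and 205 units there and 7.62, 8.54 and 8.42 with RNase. Fresh tissue had 217, 312 and 401 units of miR-451a and the 0 U control 5.43, 6.16 and 4.99, so intact RNA of both kinds already differed. By rank miR-486a-5p went the other way, at -12.2 points. Its unscaled signal was higher in stored tissue, at 31.8, 31.7 and 31.0 units against 6.29, 6.40 and 11.8 with RNase. The remaining red cell miRNA, miR-144-3p, was detected on every fresh array and on no stored or RNase array, and was not called by rank.

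The 11 muscle, nerve, pancreas and eye miRNAs that a liver should lack were checked as well. None was detected on any RNase or fresh array, and 7 of the 11 were on no stored array. miR-133a-3p and miR-133b-3p were on every stored array. Of all 1881 miRNAs, 1560 were on no fresh array, 410 on at least 1 RNase array and 754 on at least 1 stored array. The count for stored tissue thus lies near that of all miRNAs. The summed signal of the 11 was 32.1, 32.7 and 11.1 units in stored tissue. The hepatocyte markers miR-122-5p, miR-192-5p and miR-194-5p were detected on all 12 arrays of the 4 states.

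Some miRNAs are made without Drosha. Mirtrons such as miR-877-5p are released by splicing, and miR-320-3p and miR-484 come from other short precursors. miR-877-5p had 197, 156 and 199 units in stored tissue and 0.89, 0.88 and 6.68 with RNase, and it ranked 43.2 points higher in stored tissue (SE 6.91, limma adjusted p = 1.51e-05). Its partner miR-877-3p had 20.6, 22.7 and 21.1 units in stored tissue and 5.92, 4.78 and 7.84 with RNase, a rank difference of -15.4 points. The arms thus lay on opposite sides of the rank comparison. miR-320-3p, at 105, 151 and 52.3 units in stored tissue and undetected with RNase, ranked 35.7 points higher in stored tissue. miR-484 ranked higher with RNase, at -18.1 points, but was detected on 1 of 3 RNase arrays. With undetected miRNAs tied it differed by -3.80 points, under the 10 points asked for. Its unscaled signal was higher in stored tissue, at 9.41, 7.35 and 7.55 units against 2.30, 2.37 and 2.42 with RNase.

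MiRNA names are numbered in order of discovery, so the number stands for how early a miRNA was entered in miRBase, the registry. miRNAs below 300, with let-7, made up 17.2%, 18.1% and 20.3% of those detected in stored tissue and 22.4%, 24.6% and 21.6% with RNase. Those from 3000 upward made up 57.4%, 56.0% and 56.2% in stored tissue and 53.3%, 50.1% and 55.3% with RNase. Stored minus RNase, the early share differed by -4.34 points and the late share by 3.61 points, with the same sign in 3 of 3 mice and an exact permutation p = 0.1 for each, the smallest possible. In mouse 10 the differences were -1.31 and 0.851 points. Among the 100 brightest, 9 were below 300 in stored tissue, 27 with RNase, 66 in fresh tissue and 37 at 0 U.

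By rank the classes went opposite ways. Of the 141 kept miRNAs below 300, 12.8% ranked higher in stored tissue and 48.2% higher with RNase, against 25.8% and 28.7% of all. The median of this class was -15.5, -18.1 and -1.27 points in mice 7, 9 and 10, so it was small in mouse 10. From 3000 upward, 30.7% of 326 ranked higher in stored tissue and 21.8% higher with RNase, and the medians were 3.17, 4.52 and 0.713 points. The 40 miRNAs from 1000 to below 3000 had the highest share of calls toward stored tissue, 37.5%.

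**Figure D5:**
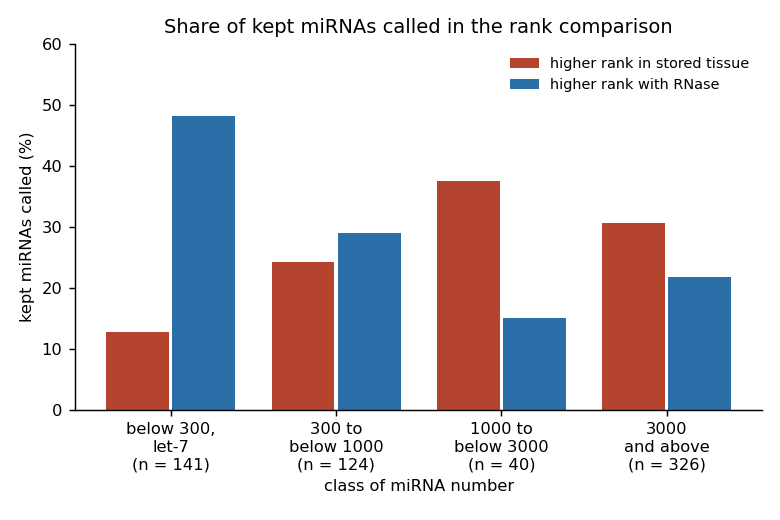
Percentage of the kept miRNAs of each number class (141, 124, 40 and 326 miRNAs) that ranked higher in stored tissue or with RNase. Below 300, 48.2% ranked higher with RNase and 12.8% in stored tissue, and the order turns from 1000 upward.

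A run of numbers from miR-6896 to miR-7093 holds many miRNAs named together. Of its 142 kept members, 43 ranked higher in stored tissue and 37 with RNase, near the 25.8% and 28.7% of all kept miRNAs. The 96 kept 5p arms had 40 higher in stored tissue and 13 with RNase, with a median of 8.14 points, and the 46 kept 3p arms had 3 and 24, with a median of -13.8. The 5p arms summed to 28381, 33610 and 33381 units in stored tissue, 4236, 4028 and 9843 with RNase and 192, 254 and 292 in fresh tissue. The 3p arms summed to 974, 879 and 600 units in stored tissue, 161, 121 and 287 with RNase and 186, 147 and 127 in fresh tissue. The brightest 5p arm, miR-7047-5p, had 6110, 4597 and 11445 units in stored tissue and 704, 664 and 1557 with RNase. Median G content was 47.8% in the 5p arms and 13.6% in the 3p arms with a sequence. By signal, 3p arms turned with the scaling, from 8 higher in stored tissue and 1 higher with RNase after variance stabilization to 3 and 17 after quantile normalization and 42 and 0 without scaling.

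MiRNAs of the miR-466, miR-467, miR-669 and miR-297 families come from repeated copies with near-identical sequence, and their probes may share targets. Of 25 kept, 5 ranked higher in stored tissue and 2 with RNase. They summed to 6547, 7975 and 2095 units in stored tissue, 243, 216 and 615 with RNase, and 79.6, 96.9 and 102 in fresh tissue. miR-466i-5p carried most of the stored signal, with 4926, 5702 and 1632 units there against 89.9, 64.7 and 195 with RNase.

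Base composition was read from the 1608 array miRNAs with a RefSeq sequence, 526 of them among the 631. The miRNAs that ranked higher in stored tissue had a median G content of 40.9% and those that ranked higher with RNase 22.7%, against 33.3% of all kept. The motif GGGG, searched on the mature strand, was in 25.9%, 10.5% and 20.7% of them and in 11.3% of all matched miRNAs. Across the 526, G content correlated with the rank difference at Pearson 0.296, with 0.337 and 0.354 in mice 7 and 9 and 0.102 in mouse 10. U content correlated at -0.18 and A content at -0.05. These correlations run across miRNAs on the same arrays and carry no test.

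The detected sets went the other way. Mean G content of detected miRNAs was 34.3%, 34.2% and 33.8% in stored tissue and 35.9%, 35.4% and 35.0% with RNase, and the groups did not overlap (difference -1.36 points, exact permutation p = 0.1, the smallest possible). The sign turned where detection was set by a fixed signal level. Mean G+C content was 58.6%, 58.2% and 58.3% in stored tissue and 58.7%, 58.2% and 58.5% with RNase, a difference of -0.12 points (exact permutation p = 0.6).

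The intact counterparts were compared as well. They differ in the kind of RNA and also in the incubation and the repeated isolation, which cannot be told apart. Fresh tissue had 148 miRNAs (23.5%) with higher signal than the 0 U control and 8 (1.27%) with lower signal, at the same limma thresholds. These counts depend on the scaling, being 84 and 225 with the 75th percentile of always-detected miRNAs and 98 and 116 by within-array rank. Among the 163 miRNAs that ranked higher in stored tissue, 39 were higher in fresh tissue than at 0 U by signal, and among the 181 that ranked higher with RNase, 53 were. The change with storage was then set against the change with RNase, which share no array. A positive difference of changes means that storage moved a miRNA higher, relative to its intact counterpart, than RNase did. At the same limma thresholds it was called positive for 190 miRNAs (30.1%) and negative for 139 (22%). Without mouse 7, 97 were called positive, and with within-array ranks 152 were called positive and 153 negative. Of the 163, 107 were called positive and 8 negative, and of the 181, 85 were called negative. All 9 let-7 members and 12 of the 15 liver miRNAs were called negative. The remaining liver miRNAs, miR-101a-3p, miR-101b-3p and miR-378a-3p, had -1.45, -1.58 and -0.37 and did not pass.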

How the data were processed

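The authors scanned one-colour Agilent mouse miRNA arrays, each with 1881 miRNAs and 30 spots per miRNA. Per the file headers, Agilent Feature Extraction 10.10.1.1 made the deposited intensity values by subtracting background, without scaling across arrays, and flagged each miRNA as detected or not. A second deposited table gives the authors' vsn values on a log2 scale, and these were not the basis of the tests. Signal here means the total gene signal of a detected miRNA, or the summed probe signals of an undetected one. vsn was rewritten in Python 3.11.15 with numpy 2.4.6, and its glog2 values differed from the deposited ones with an SD of 0.0956. The number of arrays limits the precision, and no spot was saturated.

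MiRNAs with detection on 5 or more arrays were kept (631). limma 3.58.1 in R 4.3.3 fitted 8 group means to all 24 arrays, on glog2 values and on within-array percentile ranks, with Benjamini-Hochberg adjustment over the 631. Calls asked for an adjusted p under 0.05 and a difference of 1 on glog2 or 10 percentile points. The script was tested on simulated data. Values per array were compared by exact permutation of 20 relabellings. Named were the 8 largest rank differences in each direction among calls that rank and signal shared, the 8 brightest of each state, up to 4 examples per list and the 4 largest differences of changes in each direction. Also named were further members of the lists and the 4 miRNAs on every RNase array and no stored array. All other names, marked or not, were chosen after their values were seen. The members and lists were chosen with earlier results of these data known.

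Replicate numbers mark animals (1, 2 and 3 are mice 7, 10 and 9), so arrays of a mouse are paired by the labels. The mean correlation of deviations from group means was 0.0914 within a mouse and -0.0987 between mice. Sequences came from RefSeq GRCm38.p6, and no coordinates are printed, since the array design names another build. Alternatives were other scalings, filters, detection rules and rankings, the mouse as a block, mouse 9 by title, and leaving out each mouse. For normexp the median signal was used, the mean signal not being among the columns used here. The arrays without DNase, of untreated depleted RNA and at 0.026 U entered only the fit, the filter on detection and the check of mouse 9.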

Additional observations from a re-analysis of the deposited data

Results flagged for a closer look

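The change with storage (stored against fresh tissue) and the change with RNase (0.67 U against 0 U) were compared in one limma contrast on glog2 values, and the following results were singled out because that contrast passed its thresholds. The difference of changes was called positive for 190 miRNAs and negative for 139. With within-array ranks in place of glog2 values it was called positive for 152 and negative for 153. On glog2 values its median over all 631 miRNAs, called or not, was 0.72. miR-8093 had a difference of 9.27, miR-3089-5p 6.74, miR-1957a 6.70 and miR-1955-3p 6.35. None of these 4 was detected on a fresh, RNase or 0 U array, so these sizes rest on values not above background and move with the scaling. Stored minus RNase, miR-8093 differed by 10.60 after variance stabilization and 6.44 after quantile normalization, and miR-3089-5p by 6.59 and 1.62.

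On the negative side, let-7e-5p, detected in stored tissue of mouse 10 only, had a difference of -5.71. Storage went with a change of -5.56 against fresh tissue and RNase with 0.15. miR-295-5p had a difference of -5.99, from -0.38 with storage and 5.60 with RNase. It was detected on no fresh or 0 U array and on 1 of 3 stored arrays, so this size rests on values not above background. miR-3968 had -5.88 (SE 0.45, limma adjusted p = 1.89e-08). Its signal was 1639, 3716 and 5130 units in fresh tissue of mice 7, 9 and 10, 185, 231 and 133 in stored tissue, and between 13 and 23.1 with RNase and at 0 U. miR-652-5p had -5.57, and its signal rose from 0.63, 0.63 and 1.36 units at 0 U to 169, 182 and 418 with RNase. It was not detected at 0 U, so this size also rests on values not above background. In stored tissue it had 351, 340 and 369 units against 27, 49 and 65 in fresh tissue. What lies behind these differences was not tested.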

How the results depend on the processing

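No miRNA was called in the opposite direction under any ranking tried, though miR-101b-3p changed sign. Ranking among all miRNAs left 101 calls toward stored tissue and 81 toward RNase. let-7a, b, c, f, g and i then fell under 10 points. Leaving out 1 mouse gave 112 to 174 and 125 to 190 calls, fewest without mouse 7. With a replicate block for the mouse (the paired fit) rank calls were 165 and 184, signal calls 268 and 79, differences of changes 197 and 141 and intact differences 151 and 8, so the pairing changed no count by over 1.5 times. Grouping mouse 9 by title gave 163 and 175 rank calls. Of the named rank results 709 were the same under an alternative, 55 no longer passed, 10 newly passed and 1 reversed: miR-101b-3p, at -8.66 with undetected miRNAs tied.

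Signal counts moved with the scaling. Toward stored tissue they were 158 when scaled to the 75th percentile of always-detected miRNAs, 480 with spike-ins, 493 unscaled, 29 with normexp and 468 without a filter, and 181 to 270 without 1 mouse. Toward RNase they were 148 and 171 with the 75th percentile over all or always-detected miRNAs, 172 with quantiles, 23 with spike-ins, 22 unscaled, 32 with normexp and 347 without a filter, and 46 (without mouse 7) to 92 without 1 mouse. Positive calls of the difference of changes were 391, 399, 40 and 290 with spike-ins, unscaled, with normexp and without a filter, and 97 (without mouse 7) to 161 without 1 mouse. Negative ones were 60 with normexp, 248 without a filter, 90 with detection on all 3 arrays of a state, and 110 to 144 without 1 mouse. Intact differences toward fresh tissue were 84 with the percentile of always-detected miRNAs, 35 with normexp and 98 by rank. Toward 0 U they were 39 and 225 with both percentiles, 123 with quantiles, 1 with spike-ins, 1 unscaled, 27 with normexp and 116 by rank, and 4 (without mouse 10) to 8 without 1 mouse.

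A fixed signal level for detection gave a difference of 358.3 detected miRNAs, 441 detected on every array of both states, class differences of 1.66 (300 to 1000) and 0.749 points (3000 and above), G+C of -0.42 points and G of 0.212 points, against -1.36 in the main setting. Detection by probe gave -1.75 (300 to 1000) and 1.19 points (1000 to 3000) and G of -2.03 points. The set on every RNase and no stored array had 9 members by probe, 7 by level and 7 to 8 without 1 mouse. The set on every stored and no RNase array had 167 to 302 without 1 mouse, 302 without mouse 10. The cause was not tested. With 3 arrays per state no comparison can give an exact p below 0.1, and miRNAs under about 10 units lie near background.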
